A study of Mus musculus with 34 samples.

Results

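The galectin family was followed through drug treatment of a pair of mouse leukaemia lines. Its 9 members here are the genes measured under the symbols Lgals1, Lgals2, Lgals3, Lgals3bp, Lgals4, Lgals7, Lgals8, Lgals9 and Lgals12, out of 19938 genes measured with a symbol of their own. Each of the 9 had a single probeset, and members were taken by symbol, with earlier results of these data known. Expression was measured on 34 Affymetrix Mouse Gene 1.0 ST arrays, and all values below are log2 signals. The lines, Bin-2 and 8093, are precursor B cell (pre-B) acute lymphoblastic leukaemias, each grown out from the leukaemia of a different mouse carrying a BCR/ABL transgene, so each line stands for a single tumour. Bin-2 came from a mouse of mixed background and 8093 from the inbred C57Bl/6J background. BCR/ABL, a fused and constantly active tyrosine kinase made by the Philadelphia chromosome, is present in all groups, untreated ones included. All cultures grew on irradiated mouse embryonic fibroblasts in medium that contained IL-3, and loosely attached or floating cells were taken for RNA.

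There were 4 courses of continuous treatment. Nilotinib, which blocks the ABL kinase, was used at 50 nM in Bin-2 and at 20 nM in 8093. Lonafarnib, which blocks the lipid-attaching enzyme farnesyltransferase, was used at 0.25 µM in Bin-2 and at 1 µM in 8093. Each course was sampled 3 times, first on day 0 (the start), then at a midpoint and last at the end. The midpoint fell on day 3, or on day 4 for 8093 under lonafarnib, when 5 to 10% of cells (20% for 8093 under lonafarnib) were viable. At the end about 90% were viable, on day 21 (Bin-2, nilotinib), day 30 (Bin-2, lonafarnib), day 20 (8093, nilotinib) or day 26 (8093, lonafarnib). Each of the 12 groups held 3 arrays from separate plates, except both 8093 ends, which held 2. Doses differed between the lines, so a difference between lines is also a difference of dose.

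Galectins are lectins that bind beta-galactosides, the galactose-ended sugars of glycoproteins, above all the lactosamine chains of N-glycans. They are made in the cytosol, leave the cell without a signal peptide and cross-link glycoproteins at cell surfaces, and inside the cell some of them mark damaged vesicles. Prototype galectins (galectin-1, galectin-2 and galectin-7) have a single sugar-binding domain and can pair up, tandem-repeat galectins (galectin-4, galectin-8, galectin-9 and galectin-12) have a pair of such domains on a linker, and galectin-3 joins its domain to a tail through which it assembles. Lgals3bp has the family's symbol but encodes a secreted glycoprotein that galectins bind. In the B lineage galectin-1 from bone marrow stroma is known as a ligand of the pre-B cell receptor, and galectin-3 is abundant in macrophages.

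The cell type given by the labels was checked with 11 measured pre-B markers. Their mean log2 signal lay between 8.48 and 9.88 on 32 arrays and at 5.50 and 5.35 on both end arrays of 8093 under nilotinib, where 10 of the 11 markers had fallen and Rag1, the recombinase of developing lymphocytes, averaged 4.31 against 8.99 at the start. Of all genes 24.9% fell at that end. Those 2 arrays therefore did not show the labelled cell type, and results that use them concern those cultures only. Macrophage and mast cell markers rose in several groups, and they are given below beside the galectins. Fibroblast markers rose in 7 of 11 cases at the nilotinib midpoint of 8093, where 22.6% of all genes rose. They rose in 4 of 11 at the lonafarnib midpoint of Bin-2 (4.45% of all genes) and 3 of 11 at its nilotinib midpoint (1.87%). Elsewhere 0 of 11 rose, against 3.89% to 19.6% of all genes. The group means of this list lay between 4.55 and 5.25. In these bulk RNA samples, fewer cells of a type and less RNA per cell cannot be told apart, and neither can dying and living cells at a midpoint. Array values were narrower in 2 groups, with a mean interquartile range of 3.16 for lonafarnib-treated Bin-2 and 3.03 for nilotinib-treated 8093, both at the midpoint, while the remaining group means were 3.42 to 3.55. Between the lonafarnib and nilotinib starts of Bin-2, 0 of 9 galectins and 0% of all genes were called. The same held between those of 8093. At an unadjusted p below 0.05 limma gave 0 galectins between the Bin-2 starts and 2 between the 8093 starts. The 8093 start arrays of Lgals1 did not overlap, at 11.25 to 11.44 for nilotinib and 11.52 to 11.67 for lonafarnib. Those of Lgals9 did not overlap either, at 10.466 to 10.645 and 10.654 to 10.842.

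Lgals3 and Lgals9 spanned the widest range of the family and were called in opposite directions at 3 midpoints, so the stretch of 250 bases before the start of each gene is shown. The sequences are RefSeq's for build GRCm38.p6, which holds such a stretch for 7 of the 9 members. Capitals mark matches to searched motifs.
Lgals3: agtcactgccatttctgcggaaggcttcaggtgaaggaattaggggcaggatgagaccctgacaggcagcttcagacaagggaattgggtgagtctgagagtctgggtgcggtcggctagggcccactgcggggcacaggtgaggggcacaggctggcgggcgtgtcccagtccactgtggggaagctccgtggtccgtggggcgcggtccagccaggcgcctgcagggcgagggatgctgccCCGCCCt
Lgals9: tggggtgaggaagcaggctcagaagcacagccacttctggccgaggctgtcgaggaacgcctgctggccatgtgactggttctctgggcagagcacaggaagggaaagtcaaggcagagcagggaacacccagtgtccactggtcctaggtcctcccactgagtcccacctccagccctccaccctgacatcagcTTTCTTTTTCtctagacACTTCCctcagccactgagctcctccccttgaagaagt
The Lgals3 stretch is chr14:47373610-47373859 on the plus strand and the Lgals9 stretch is chr11:78984925-78985174 on the minus strand, each read in the direction of its gene. The Lgals3 stretch was 66% G or C and held a GC box (GGGCGG, on the opposite strand, 7 to 2 bases before the start), a motif found in 32.7% of 32851 promoters of this length. The Lgals9 stretch was 58.4% G or C and held an interferon response element (55 to 46 bases before the start), found in 2.98% of promoters, and an ETS motif (GGAAGT, 38 to 33 bases before the start), found in 19.7%. Both strands were searched, no matches overlapped, and the other motifs sought were AP-1 (TGANTCA), STAT (TTCNNNGAA), RUNX (TGTGGT) and FOXO (GTAAACA), which these letters did not show in either stretch. Among the other 5 stretches Lgals7 held a GC box and Lgals8 a RUNX motif. These are matches of letters, and nothing about the binding of a factor was measured.

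Across the 12 groups the mean log2 signal of Lgals3 spanned 4.96, that of Lgals9 1.63, that of Lgals4 1.39 and that of Lgals8 1.21. The remaining members moved within narrower bounds: the group means of Lgals3bp spanned 0.75, of Lgals7 0.74, of Lgals12 0.62, and of Lgals1 and Lgals2 0.50 each. A gene was called changed at a Benjamini-Hochberg adjusted p below 0.05 among 19938 genes in limma's fit over all 34 arrays, and each change is a difference of mean log2 signals ± its standard error (SE). Over 23 comparisons, 55 changes of members were called. Lgals2, Lgals4, Lgals7 and Lgals12 stayed below a mean log2 signal of 6 in every group, and as each value set below is relative to the same probeset, no level is compared between members.

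**Figure D1:**
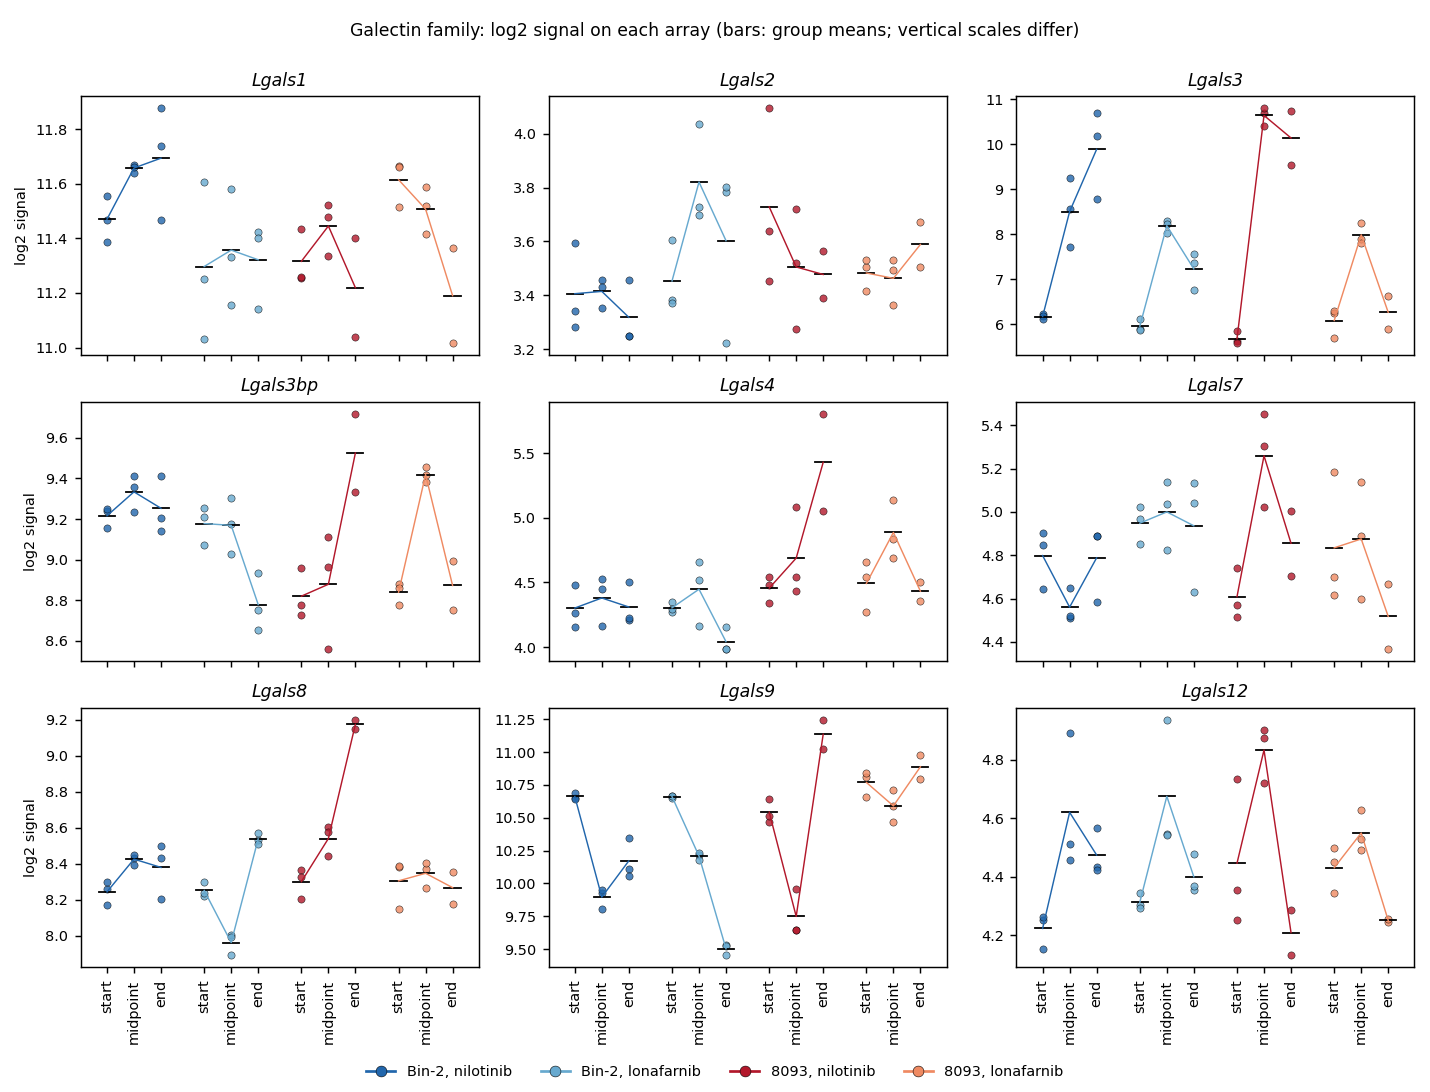
Log2 signal of each galectin family member on each of the 34 arrays (points), by course and time, with the mean of each group (bars) joined within a course; vertical scales differ between panels. Lgals3 climbs by 1.90 to 4.96 log2 units at the midpoints, the Lgals9 mean lies below its start at all 4 midpoints (called at 3), and Lgals1 stays between 11.02 and 11.88 on all arrays.

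Lgals3, the gene of galectin-3, rose at the midpoint of all 4 courses and stayed above its start at the end of 3. In Bin-2 under nilotinib its log2 signal was 6.23, 6.18 and 6.12 at the start, 9.25, 7.72 and 8.55 at the midpoint, and 10.69, 10.18 and 8.80 at the end. In Bin-2 under lonafarnib it was 5.89, 6.12 and 5.88 at the start, 8.31, 8.04 and 8.24 at the midpoint, and 6.77, 7.56 and 7.37 at the end. Neither course had a treated array as low as any of its start arrays. In 8093 under nilotinib the log2 signal of Lgals3 was 5.63, 5.85 and 5.58 at the start, 10.41, 10.70 and 10.80 at the midpoint, and 10.74 and 9.54 at the end. In 8093 under lonafarnib it was 5.71, 6.25 and 6.31 at the start, 8.26, 7.90 and 7.80 at the midpoint, and 5.91 and 6.63 at the end. Only in this last course did end and start arrays overlap.

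Against the start, the midpoint change of Lgals3 in Bin-2 was 2.33 ± 0.35 under nilotinib (5.02-fold, adjusted p = 6.39e-05) and 2.23 ± 0.35 under lonafarnib (4.69-fold, adjusted p = 8.77e-05). In 8093 the midpoint change was 4.96 ± 0.35 under nilotinib (31.0-fold, adjusted p = 1.86e-12) and 1.90 ± 0.35 under lonafarnib (3.74-fold, adjusted p = 4.28e-04). The end values differed more between the courses than the midpoint values. The end exceeded the start by 3.71 ± 0.35 in Bin-2 under nilotinib (13.1-fold, adjusted p = 7.53e-09), by 1.27 ± 0.35 in Bin-2 under lonafarnib (2.41-fold, adjusted p = 0.0168) and by 4.46 ± 0.39 in 8093 under nilotinib (21.9-fold, adjusted p = 4.62e-11). For 8093 under lonafarnib the difference was 0.18 ± 0.39 (adjusted p = 0.862). Of these calls the lonafarnib end of Bin-2 was the least firm: it was lost when start array 1 or 3 or end array 2 or 3 was left out, with changes of 1.11 to 1.24 and adjusted p of 0.0576 to 0.0965.

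From midpoint to end Lgals3 was called down in both lonafarnib courses. Under lonafarnib its end log2 signal lay below the midpoint, by -0.96 ± 0.35 in Bin-2 (adjusted p = 0.0360) and by -1.72 ± 0.39 in 8093 (adjusted p = 0.00480), with no array overlapping. The Bin-2 call was lost without midpoint array 1, 2 or 3 or end array 1 or 3 (changes of -1.04 to -0.73, adjusted p of 0.0553 to 0.169) and with the trended robust prior (adjusted p = 0.0638), and the 8093 call without end array 1 (-1.36, adjusted p = 0.137). Under nilotinib the end exceeded the midpoint by 1.38 ± 0.35 in Bin-2 (adjusted p = 0.0351), with overlapping arrays, and differed from it by -0.50 ± 0.39 in 8093 (adjusted p = 0.270). The Bin-2 call was lost without midpoint array 2 or 3 or end array 1 or 2 (changes of 0.98 to 1.41, adjusted p of 0.0974 to 0.404), with the trended robust prior (adjusted p = 0.0838) and in the fit of the compared groups alone (adjusted p = 0.388), and the spread within the groups was wide, with an SD of 0.979 at that end and 0.765 at that midpoint.

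Ranked by mean log2 signal, the Lgals3 groups ran from the nilotinib midpoint of 8093 (10.64) through the nilotinib end of 8093 (10.14), the nilotinib end of Bin-2 (9.89), the nilotinib midpoint of Bin-2 (8.51), the lonafarnib midpoints of Bin-2 (8.19) and 8093 (7.99), to the lonafarnib end of Bin-2 (7.23). Below them lay the lonafarnib end of 8093 (6.27) and the 4 starts (5.68 to 6.18). Neighbours in this order overlapped except at 3 steps, on either side of the lonafarnib end of Bin-2 and between the lowest start and the start next above it.

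Markers of macrophages, like Lgals3, stood above their start at the midpoint of each course. The mean log2 signal of 11 measured macrophage markers was 6.31, 6.24 and 6.04 at the start, 9.14, 7.87 and 8.65 at the midpoint and 9.63, 9.77 and 8.38 at the end of Bin-2 under nilotinib. Under lonafarnib the Bin-2 values were 6.22, 6.16 and 5.92 at the start, 7.35, 6.92 and 7.32 at the midpoint and 6.39, 6.88 and 6.61 at the end. As for Lgals3, the nilotinib arrays of Bin-2 stood above those of lonafarnib at the end. At the midpoint of Bin-2 the drugs were further apart in these markers than in Lgals3. The macrophage mean there was 8.55 under nilotinib and 7.20 under lonafarnib, and the Lgals3 mean was 8.51 and 8.19. In 8093 under nilotinib the mean was 5.42, 5.50 and 5.44 at the start, 8.93, 9.68 and 8.71 at the midpoint and 9.95 and 8.36 at the end. Under lonafarnib the 8093 values were 5.46, 5.46 and 5.36 at the start, 7.38, 6.42 and 6.55 at the midpoint and 5.49 and 6.42 at the end. The array with the lowest Lgals3 signal also had the lowest macrophage mean in 8 of 12 groups, and the array with the highest had the highest in 8 of 12. Both 8093 ends held 2 arrays, so there the lowest and highest matches are the same fact. Start groups with macrophage ranges as small as 0.07 are included, and these counts were not tested.

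Single macrophage markers were called in the same comparisons. In Bin-2 all 11 rose at the midpoint and at the end under nilotinib, and 5 rose at the midpoint and 1 at the end under lonafarnib. In 8093 10 of 11 rose at the midpoint and 10 at the end under nilotinib, 5 rose at the lonafarnib midpoint, and 1 rose and 1 fell at the lonafarnib end. Of all genes in Bin-2, 1.87% rose at the midpoint and 4.95% at the end under nilotinib, and 4.45% and 4.66% under lonafarnib. In 8093 these shares were 22.6% and 19.6% under nilotinib and 3.89% and 4.4% under lonafarnib, with 4.31% falling at the lonafarnib end. The same shares apply to the mast cell counts that follow. Itgam, the CD11b integrin chain of myeloid cells, rose at the nilotinib midpoint by 2.99 ± 0.40 in Bin-2 and by 4.86 ± 0.40 in 8093. Mast cell markers did not follow the same course: in Bin-2 0 of 11 rose at the nilotinib midpoint, where their mean was 4.11, 4.38 and 4.64 against 4.27, 4.24 and 4.32 at the start, and 10 of 11 had risen by the end. At the lonafarnib midpoint and end of Bin-2 none of the 11 rose, and Lgals3 was called up at both. In 8093 all 11 mast cell markers rose at the nilotinib midpoint and end, 9 at the lonafarnib midpoint and 5 at the lonafarnib end. The part of other cell types in the Lgals3 values was not tested.

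**Figure D2:**
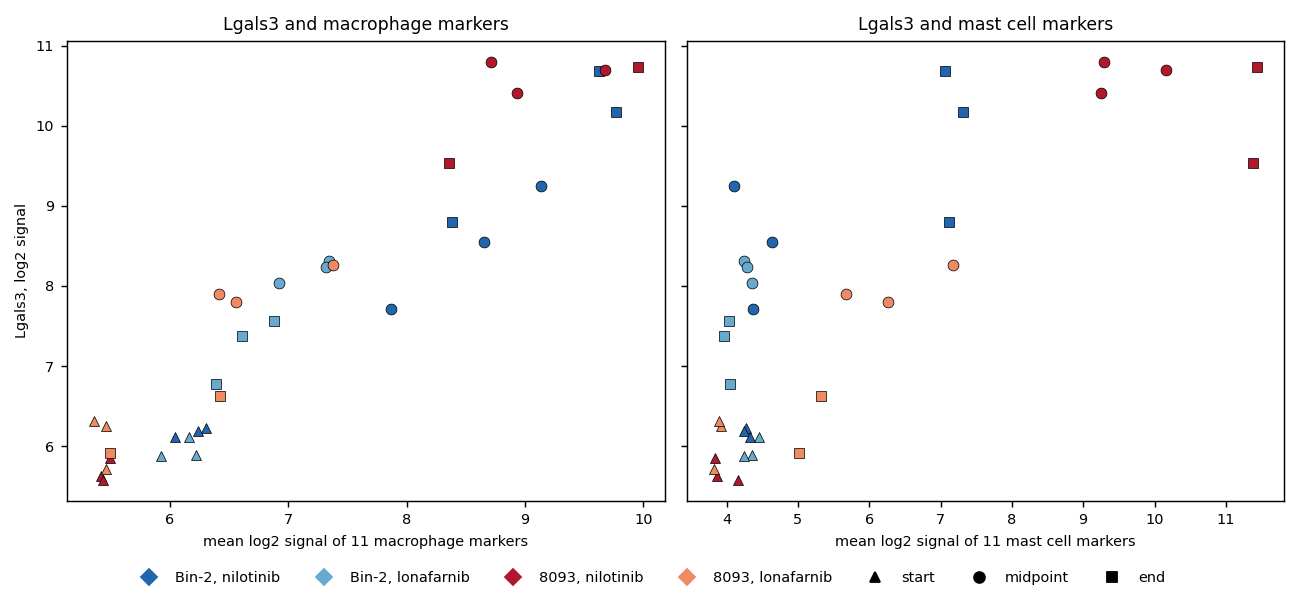
Lgals3 log2 signal (vertical) on each array against the mean log2 signal of 11 macrophage markers (left) and 11 mast cell markers (right); colour gives the course and symbol shape the time. Arrays with a high macrophage mean had high Lgals3, while the 6 midpoint arrays of Bin-2 had mast cell means of 4.11 to 4.64 and Lgals3 between 7.72 and 9.25.

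Lgals9, the gene of galectin-9, a tandem-repeat galectin known as a ligand of the T cell receptor Tim-3, fell at 3 of 4 midpoints. In Bin-2 under nilotinib its log2 signal was 10.65, 10.64 and 10.69 at the start, 9.81, 9.93 and 9.95 at the midpoint, and 10.35, 10.11 and 10.06 at the end. In Bin-2 under lonafarnib it was 10.67, 10.65 and 10.67 at the start, 10.22, 10.18 and 10.23 at the midpoint, and 9.45, 9.53 and 9.52 at the end. All treated Bin-2 arrays lay below all start arrays, and under lonafarnib the end lay below the midpoint as well. In 8093 under nilotinib the log2 signal of Lgals9 was 10.65, 10.47 and 10.52 at the start, 9.65, 9.64 and 9.96 at the midpoint, and 11.24 and 11.03 at the end. In 8093 under lonafarnib it was 10.81, 10.65 and 10.84 at the start, 10.71, 10.59 and 10.46 at the midpoint, and 10.98 and 10.80 at the end, with overlap between times.

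The midpoint changes of Lgals9 from the start were -0.77 ± 0.10 in Bin-2 under nilotinib (adjusted p = 1.24e-05), -0.45 ± 0.10 in Bin-2 under lonafarnib (adjusted p = 0.00276) and -0.79 ± 0.10 in 8093 under nilotinib (adjusted p = 1.28e-07). The midpoint change in 8093 under lonafarnib was -0.18 ± 0.10 (adjusted p = 0.320). At the end Lgals9 had fallen by 0.49 ± 0.10 in Bin-2 under nilotinib (adjusted p = 0.00115) and by 1.16 ± 0.10 in Bin-2 under lonafarnib (2.23-fold, adjusted p = 1.44e-09). In 8093 under nilotinib it had risen by 0.59 ± 0.11 over the start (adjusted p = 5.77e-05) and by 1.39 ± 0.11 over the midpoint (2.61-fold, adjusted p = 2.09e-11), on the arrays that were low in pre-B markers. The end change in 8093 under lonafarnib was 0.12 ± 0.11 (adjusted p = 0.629). All of these calls remained when any single array was left out and with quantile normalization. The nilotinib midpoint of 8093 and the lonafarnib midpoint of Bin-2 were the groups with narrower array values. What part this had in the size of their falls was not tested.

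Ranked by mean log2 signal, Lgals9 was highest at the nilotinib end of 8093 (11.14), followed by the lonafarnib end (10.89) and start (10.77) of 8093, both Bin-2 starts (10.66 each), the lonafarnib midpoint (10.59) and nilotinib start (10.54) of 8093. Below these came the lonafarnib midpoint (10.21), nilotinib end (10.17) and nilotinib midpoint (9.90) of Bin-2, the nilotinib midpoint of 8093 (9.75) and the lonafarnib end of Bin-2 (9.50). Neighbours did not overlap at 4 steps: below the highest group, above and below the pair made by the lonafarnib midpoint and nilotinib end of Bin-2, and above the lowest group.

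Lgals8, the gene of galectin-8, a tandem-repeat galectin that recognises damaged vesicles, rose most at the nilotinib end of 8093. Its log2 signal there was 9.20 and 9.15, against 8.37, 8.33 and 8.21 at the start, a change of 0.87 ± 0.10 (1.83-fold, adjusted p = 2.10e-08). At the nilotinib midpoint of 8093 it was 8.60, 8.57 and 8.44, a change of 0.24 ± 0.09 (adjusted p = 0.0306) that was lost without start array 3 or midpoint array 1 or 2 (0.19 to 0.22, adjusted p of 0.0794 to 0.127), with array weights (adjusted p = 0.0659) and with the compared groups alone (adjusted p = 0.172), and that was 0.52 and still called with quantile normalization. Bin-2 under lonafarnib went both ways: the log2 signal was 8.22, 8.30 and 8.24 at the start, averaged 7.96 ± 0.06 (SD, n = 3) with a lowest array of 7.89 at the midpoint, and was 8.53, 8.51 and 8.57 at the end, and the 3 times did not overlap. The midpoint change was -0.29 ± 0.09 (adjusted p = 0.0288), the end change from the start 0.29 ± 0.09 (adjusted p = 0.0505, and 0.0156 with dim genes left out) and the end exceeded the midpoint by 0.58 ± 0.09 (adjusted p = 2.14e-05). With quantile normalization the midpoint change was -0.15 (adjusted p = 0.271), and without start array 2 or 3 or midpoint array 2 or 3 it was -0.31 to -0.25 (adjusted p of 0.0506 to 0.117), and the compared groups alone gave an adjusted p of 0.154. In the nilotinib course of Bin-2 and the lonafarnib course of 8093, where log2 signals lay between 8.15 and 8.50, Lgals8 was not called.

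Lgals4, the gene of galectin-4, a tandem-repeat galectin of gut epithelium, was called against the start in 1 of the 8 treated groups, the nilotinib end of 8093. Its log2 signal there was 5.06 and 5.80, against 4.48, 4.34 and 4.54 at the start, a change of 0.97 ± 0.19 (adjusted p = 9.24e-05) that was 0.60 without end array 2 (adjusted p = 0.0283). It also exceeded the nilotinib midpoint (4.55, 5.09 and 4.43) by 0.74 ± 0.19 (adjusted p = 0.00197), a call lost without end array 2 (0.37, adjusted p = 0.169) and at 1.11 without end array 1. On all Bin-2 arrays the log2 signal of Lgals4 lay between 3.98 and 4.66.

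Lgals12, the gene of galectin-12, a tandem-repeat galectin of fat cells, rose slightly at a pair of midpoints, both in the groups with narrower array values. In 8093 under nilotinib its log2 signal was 4.88, 4.72 and 4.90 at the midpoint, against 4.25, 4.35 and 4.74 at the start, a change of 0.39 ± 0.12 (adjusted p = 0.00873). The arrays overlapped. Without start array 1 the change was 0.29 (adjusted p = 0.0731), with quantile normalization it was 0.18 (adjusted p = 0.233), and the compared groups alone gave an adjusted p of 0.0665. By the end the log2 signal was 4.29 and 4.13, and the change from the midpoint was -0.62 ± 0.13 (adjusted p = 3.15e-04), or -0.39 with quantile normalization (adjusted p = 0.0220). In Bin-2 under lonafarnib the midpoint log2 signal of 4.54, 4.54 and 4.94 exceeded the start signal of 4.30, 4.29 and 4.34 by 0.36 ± 0.12 (adjusted p = 0.0378). That call was lost without any single start array or midpoint array 3 (0.23 to 0.38, adjusted p of 0.0748 to 0.235) with quantile normalization (0.26, adjusted p = 0.174), with the trended robust prior (adjusted p = 0.0662) and with the compared groups alone (adjusted p = 0.147). In Bin-2 under nilotinib the midpoint change of Lgals12 was 0.40 ± 0.12 (adjusted p = 0.0649).

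Among the prototype galectins, Lgals1 was not called in any of the 23 comparisons. Lgals1 encodes galectin-1, and its log2 signal lay between 11.03 and 11.88 on the Bin-2 arrays and between 11.02 and 11.67 on the 8093 arrays. Its largest change over time was at the lonafarnib end of 8093, at 11.37 and 11.02 against 11.67, 11.52 and 11.66 at the start, -0.42 ± 0.15 (adjusted p = 0.0855). It was called there with dim genes left out (adjusted p = 0.0404), with a trended robust prior (adjusted p = 0.0403) and with array weights (-0.43, adjusted p = 0.0291). The nilotinib start arrays of 8093 had a lower Lgals1 signal than the lonafarnib start arrays, at 11.44, 11.25 and 11.26. Lgals7, the gene of galectin-7 of stratified epithelium, had a log2 signal of 5.02, 5.45 and 5.30 at the nilotinib midpoint of 8093, against 4.51, 4.57 and 4.74 at the start, a rise of 0.65 ± 0.16 (adjusted p = 0.00103). Its other 7 changes from the start lay between -0.32 and 0.25 and were not called. Lgals2, the gene of galectin-2 of the stomach and gut, had a log2 signal of 3.22 to 4.09 over all 34 arrays and was not called in any of the 23 comparisons.

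Lgals3bp, the gene of the glycoprotein that galectins bind, was the member that separated the lines before treatment. Its log2 signal on the 6 start arrays was 9.07 to 9.25 in Bin-2, against 8.73 to 8.96 in 8093, with no overlap. The difference was 0.37 ± 0.09 (adjusted p = 0.00220, and p = 0.00216 in a two-sided exact permutation test over 924 regroupings, the smallest p this test can give). Of the other 8 members 0 were called between the lines at the start in limma, with 0 at an unadjusted limma p below 0.05, while 20.1% of all genes were called. In the exact test, unadjusted over the 9 members, Lgals4 (-0.17, p = 0.0476) and Lgals12 (-0.17, p = 0.0303) were also below 0.05.

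Over time Lgals3bp took a different course in each culture. In 8093 its log2 signal at the lonafarnib midpoint was 9.46, 9.38 and 9.42, against 8.88, 8.86 and 8.78 at the start (0.58 ± 0.12, adjusted p = 0.00225), and it had returned to 8.99 and 8.75 at the end (-0.55 ± 0.14 from the midpoint, adjusted p = 0.0134, lost without end array 2 at -0.43 and adjusted p = 0.248, and with the compared groups alone at adjusted p = 0.0545). At the nilotinib end of 8093 it was 9.72 and 9.33, against 8.73, 8.78 and 8.96 at the start (0.71 ± 0.14, adjusted p = 8.86e-05) and 8.97, 9.11 and 8.56 at the midpoint (0.65 ± 0.14, adjusted p = 2.90e-04). With quantile normalization the nilotinib midpoint change from the start was 0.34 (adjusted p = 0.0224), against 0.06 ± 0.12 without it, and the end exceeded the midpoint by 0.35 (adjusted p = 0.0395). In Bin-2 it fell at the lonafarnib end, with 8.65, 8.75 and 8.93 against 9.07, 9.25 and 9.21 at the start (-0.40 ± 0.12, adjusted p = 0.0423). This last call was lost without any single start array or end array 1 or 2 (-0.45 to -0.34, adjusted p of 0.0516 to 0.177) and in the fits with the replicate block (adjusted p = 0.0507) and with the compared groups alone (adjusted p = 0.0906). In Bin-2 under nilotinib Lgals3bp stayed between 9.14 and 9.41 and was not called.

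Counted over the family, 2 of 9 members were called at the nilotinib midpoint of Bin-2 (Lgals3 up, Lgals9 down), where 1.87% of all genes rose and 1.6% fell, and the same 2 at the end, where 4.95% rose and 3.94% fell. At the lonafarnib midpoint of Bin-2 2 rose (Lgals3 and Lgals12) and 2 fell (Lgals8 and Lgals9), against 4.45% and 12% of all genes. At the lonafarnib end of Bin-2 1 rose (Lgals3) and 2 fell (Lgals3bp and Lgals9), against 4.66% and 3.41%. At the nilotinib midpoint of 8093 4 rose (Lgals3, Lgals7, Lgals8 and Lgals12) and 1 fell (Lgals9), in a comparison in which 22.6% of all genes rose and 27.5% fell. At the nilotinib end of 8093 5 rose (Lgals3, Lgals3bp, Lgals4, Lgals8 and Lgals9) and 0 fell, against 19.6% and 24.9%. In this course the 5 of 9 members called at either time were close to the share called among all genes. At the lonafarnib midpoint of 8093 2 rose (Lgals3 and Lgals3bp) and 0 fell, against 3.89% and 6.9%. At the lonafarnib end of 8093 0 were called by limma, against 4.4% of all genes that rose and 4.31% that fell, with 1 member at an unadjusted p below 0.05 and 0 to 1 called in the alternatives run.

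From midpoint to end 1 of 9 members was called in Bin-2 under nilotinib (1.41% of all genes), 4 in Bin-2 under lonafarnib (29.7%), 5 in 8093 under nilotinib (54.5%) and 2 in 8093 under lonafarnib (6.26%). Lgals3bp was among them in 3 courses, with an end below the midpoint by -0.39 ± 0.12 in Bin-2 under lonafarnib (adjusted p = 0.0177), a call lost without midpoint array 1 or end array 1 or 2 (-0.38 to -0.32, adjusted p of 0.0521 to 0.0848) and with the compared groups alone (adjusted p = 0.0611). The median change of the 9 members from the start lay between -0.04 and 0.59, the highest at the nilotinib end of 8093, where the median of all genes was -0.15.

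**Figure D3:**
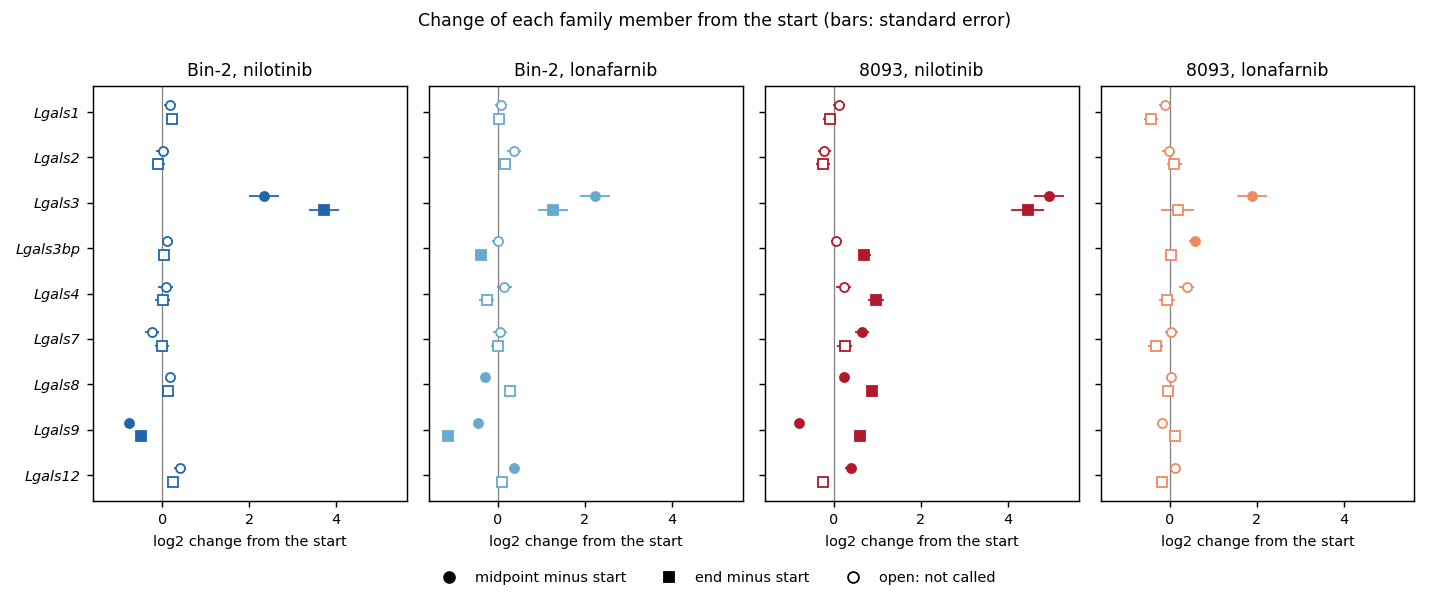
Change in log2 signal from the start of each family member at the midpoint (circles) and the end (squares) of each course, with standard errors; filled symbols are called at an adjusted p below 0.05. Lgals3 lies to the right of 0 at all 4 midpoints, and Lgals9 lies at -0.79 to -0.45 at the 3 midpoints where it was called.

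Several members differed between the drug courses of a line, tested as a difference of changes. These courses also differed in day, except at the Bin-2 midpoint, and in viability at the 8093 midpoint. Both nilotinib end arrays of 8093 were low in pre-B markers. The Lgals9 means of 8093 were 10.54 and 10.77 at the nilotinib and lonafarnib starts, and 11.14 and 10.89 at the ends. For Lgals3 the nilotinib change exceeded the lonafarnib change at the end of both lines, by 2.44 ± 0.49 in Bin-2 (3.71 against 1.27, adjusted p = 0.00113) and by 4.27 ± 0.55 in 8093 (4.46 against 0.18, adjusted p = 2.20e-07). At the midpoint it did so by 3.05 ± 0.49 in 8093 (4.96 against 1.90, adjusted p = 3.05e-05), while in Bin-2 the difference was 0.10 ± 0.49 (2.33 against 2.23, adjusted p = 0.963) with a 95% interval of -0.90 to 1.10. For Lgals9 the sign depended on time in 8093, with a difference of -0.62 ± 0.14 at the midpoint (-0.79 against -0.18, adjusted p = 0.00174) and 0.47 ± 0.16 at the end (0.59 against 0.12, adjusted p = 0.0212). The end call in 8093 was lost without nilotinib start array 2, nilotinib end array 1 or lonafarnib end array 2 (0.36 to 0.44, adjusted p of 0.0504 to 0.131) and with the compared groups alone (adjusted p = 0.0719). In Bin-2 the Lgals9 difference was 0.67 ± 0.14 at the end (-0.49 against -1.16, adjusted p = 0.00208). The Lgals8 changes differed by 0.91 ± 0.15 at the 8093 end (0.87 against -0.04, adjusted p = 7.99e-06). In all, 0 of 9 members were called for a drug difference at the Bin-2 midpoint (1.48% of all genes; 2 members at an unadjusted p below 0.05), 2 at the Bin-2 end (9.51%), 4 at the 8093 midpoint (26.8%) and 5 at the 8093 end (33.2%).

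The lines were compared in the same way, at their different doses. Under nilotinib the Lgals3 change at the midpoint was smaller in Bin-2 than in 8093, by -2.63 ± 0.49 (2.33 against 4.96, adjusted p = 1.52e-04). At the nilotinib end the difference was -0.75 ± 0.52 (3.71 against 4.46, adjusted p = 0.312), with a 95% interval of -1.81 to 0.32. The Lgals9 change was lower in Bin-2 than in 8093 at both ends: the difference was -1.08 ± 0.15 under nilotinib (-0.49 in Bin-2 against 0.59 in 8093, adjusted p = 1.12e-06) and -1.28 ± 0.15 under lonafarnib (-1.16 against 0.12, adjusted p = 1.15e-06). At the midpoints the Lgals9 differences were 0.03 ± 0.14 under nilotinib and -0.27 ± 0.14 under lonafarnib, neither called. Of the 9 members 2 were called at the nilotinib midpoint (26% of all genes), 5 at the nilotinib end (30.6%), 0 at the lonafarnib midpoint (4.2%; 2 members at an unadjusted p below 0.05) and 1 at the lonafarnib end (4.61%). The comparisons between drugs and between lines share arrays.

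**Figure D4:**
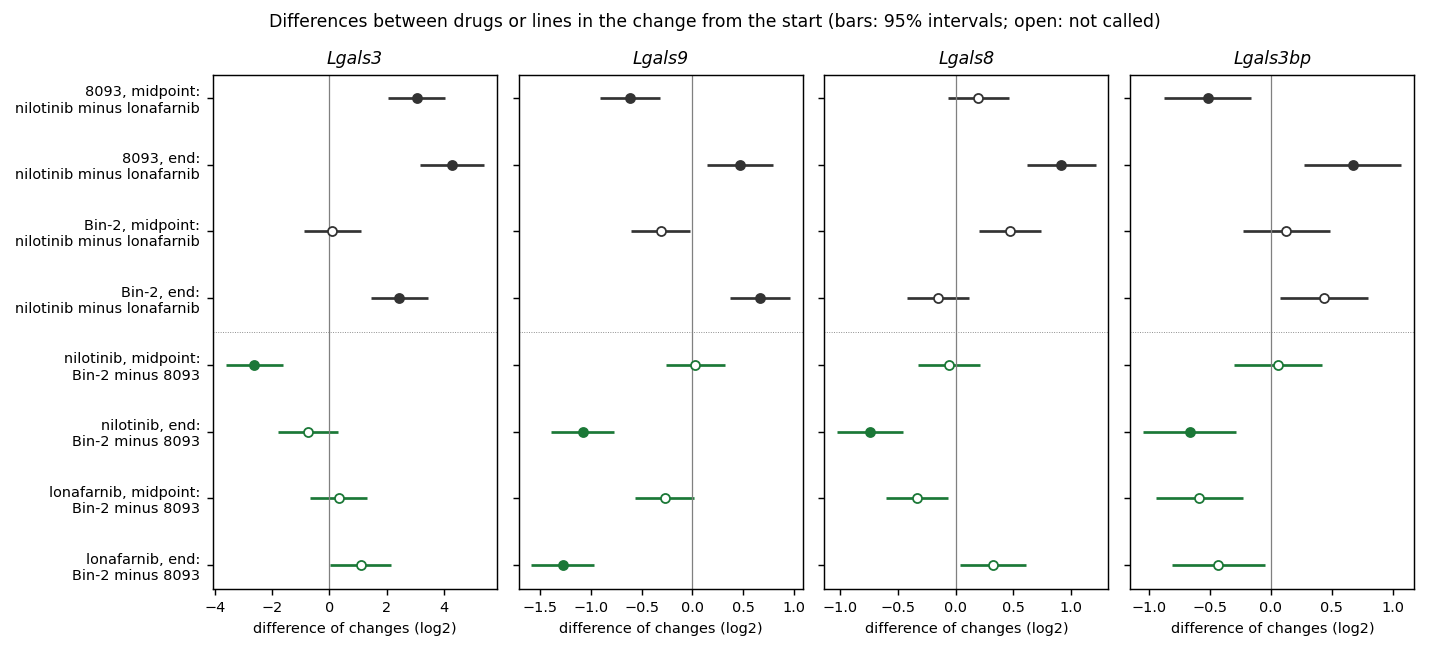
Differences in the change from the start between nilotinib and lonafarnib (upper 4) and between Bin-2 and 8093 (lower 4), in log2 units with 95% intervals, for Lgals3, Lgals9, Lgals8 and Lgals3bp; filled points are called. The Lgals3 differences between drugs are 3.05 and 4.27 in 8093 and 2.44 at the Bin-2 end, and 0.10 at the Bin-2 midpoint.

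Galectin binding depends on the sugars that cells make, and 10 enzymes and carriers of N-glycan branching and lactosamine synthesis were measured. In Bin-2 1 of 10 rose at the nilotinib midpoint and 2 at the end, 2 fell at the lonafarnib midpoint and 1 at the end. In 8093 4 rose and 4 fell at the nilotinib midpoint, 7 rose and 1 fell at the end, 1 rose at the lonafarnib midpoint, and 2 rose and 1 fell at the end. Of all genes 22.6% rose and 27.5% fell at that nilotinib midpoint and 19.6% and 24.9% at that end. With only 10 genes in the list, nothing is read from the midpoint counts. In the other 6 comparisons 1.87% to 4.95% of all genes rose and 1.6% to 12% fell. Gcnt1, which starts the branched O-glycans that carry lactosamine, rose by 0.90 ± 0.21 by the end of nilotinib treatment in Bin-2, and in 8093 by 4.18 ± 0.24 with nilotinib and 1.27 ± 0.24 with lonafarnib. It fell by 0.73 ± 0.21 at the lonafarnib end of Bin-2. B4galt1, a galactosyltransferase that completes lactosamine, rose at the nilotinib midpoint by 0.50 ± 0.13 in Bin-2 and 0.97 ± 0.13 in 8093. Mgat5, which adds the branch that extends N-glycans, rose in both 8093 courses, by 0.82 ± 0.11 at the nilotinib midpoint and 0.52 ± 0.11 at the lonafarnib midpoint.

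Sialyltransferases that cap galactose were measured too, with Mgat3, whose bisecting sugar limits branching. St6gal1, which adds the alpha-2,6-linked sialic acid that galectin-1 does not tolerate, rose at the ends of Bin-2 by 0.61 ± 0.12 under nilotinib and by 0.64 ± 0.12 under lonafarnib. In 8093 under nilotinib it rose by 0.75 ± 0.12 at the midpoint and fell by 0.48 ± 0.13 at the end. St3gal6 fell at the nilotinib and lonafarnib ends of Bin-2 by 0.61 ± 0.14 and 0.64 ± 0.14, and by 3.00 ± 0.15 at the nilotinib end of 8093. Of these 4 genes, 1 rose and 1 fell at each Bin-2 end, 1 rose and 0 fell at the Bin-2 nilotinib midpoint, and 0 were called at the Bin-2 lonafarnib midpoint. In 8093 2 rose and 1 fell at the nilotinib midpoint, 1 rose and 2 fell at the nilotinib end, 0 rose and 1 fell at the lonafarnib midpoint and 0 were called at the lonafarnib end. With only 4 genes, and 22.6% to 27.5% of all genes called in each direction at the nilotinib midpoint of 8093 and 19.6% to 24.9% at its end, nothing is read from these counts.

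Among 17 genes listed as binding partners of galectins, 5 rose and 1 fell at the nilotinib midpoint of Bin-2, and 8 rose and 1 fell at its end. Under lonafarnib 3 rose and 1 fell at the midpoint of Bin-2, and 2 rose and 1 fell at its end. In 8093 11 rose and 2 fell at the nilotinib midpoint, 12 rose and 2 fell at its end, 2 rose at the lonafarnib midpoint, and 2 rose and 1 fell at the lonafarnib end. Among all genes 22.6% rose and 27.5% fell at the nilotinib midpoint of 8093 and 19.6% and 24.9% at its end, against 1.87% and 1.6% at the nilotinib midpoint of Bin-2 and 4.95% and 3.94% at its end. Under lonafarnib 4.45% rose and 12% fell at the midpoint of Bin-2, and 4.66% and 3.41% at its end. In 8093 the lonafarnib shares were 3.89% and 6.9% at the midpoint and 4.4% and 4.31% at the end. Cd44, a hyaluronan receptor, and Fn1, fibronectin, were the partners with the largest rise at the nilotinib midpoint of Bin-2, by 1.68 ± 0.29 and 2.42 ± 0.45. In 8093 at that time they rose by 3.81 ± 0.29 and 4.96 ± 0.45. Havcr2, which encodes Tim-3, rose over the whole nilotinib course by 1.20 ± 0.26 in Bin-2, a value chosen after it was seen, and by 5.03 ± 0.29 in 8093. Lamp1, a lysosomal glycoprotein, rose by 0.42 ± 0.14 at the lonafarnib end of 8093. Igll1, the surrogate light chain to which galectin-1 binds on pre-B cells, fell at the midpoints of Bin-2 by 0.51 ± 0.13 under nilotinib and 0.65 ± 0.13 under lonafarnib, and by 4.52 ± 0.14 at the nilotinib end of 8093, and it is also 1 of the pre-B markers. Several of these genes are also made by myeloid cells, whose markers rose in the same arrays as given above. The cultures grew on fibroblasts, and some fibroblast markers rose at both nilotinib midpoints. The part of either cell type in these changes was not tested.

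**Figure D5:**
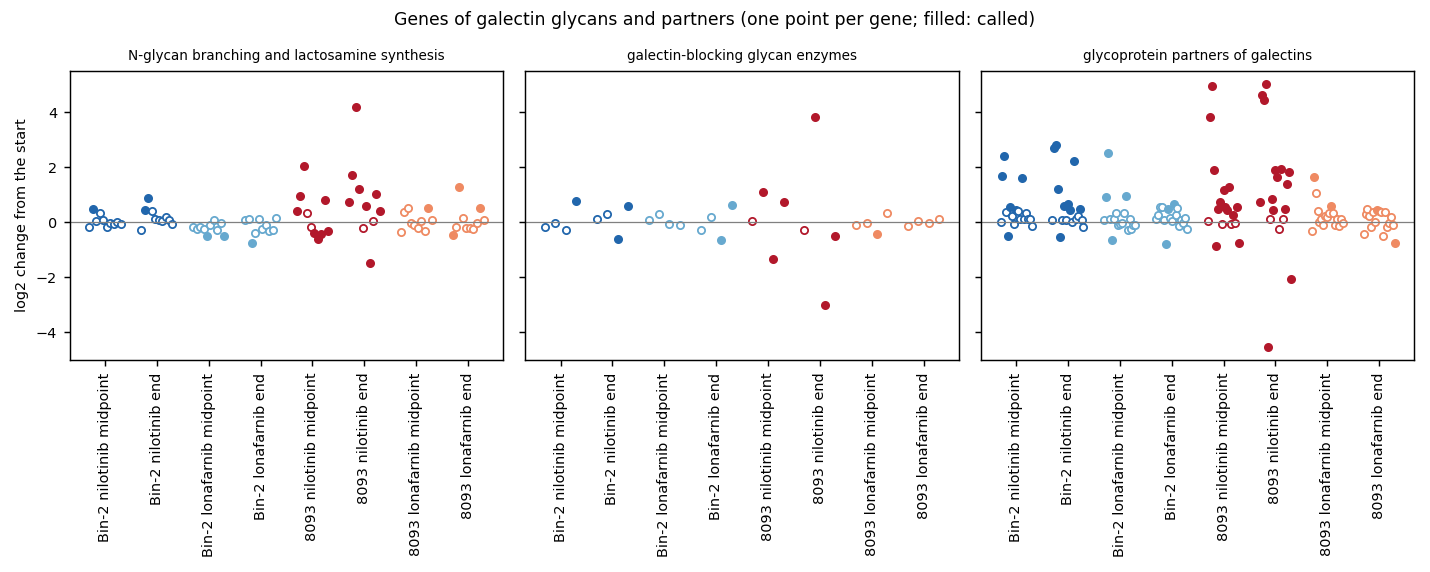
Change in log2 signal from the start of 10 N-glycan branching and lactosamine genes, 4 galactose-capping or bisecting enzymes and 17 listed galectin partners. There is a point per gene in each course and time, and filled points are called. The widest spread, from -4.52 to 5.03, is that of the partners at the nilotinib end of 8093.

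Of the other genes with a galectin domain, Lgalsl and Grifin were measured. Lgalsl, which encodes a galectin-like protein with little sugar binding, rose at the nilotinib midpoint of 8093 by 0.67 ± 0.13 and at its end by 1.36 ± 0.15. In Bin-2 under lonafarnib it rose by 0.54 ± 0.13 at the midpoint and fell by 0.55 ± 0.13 at the end. Grifin, a lens protein, was not called against the start in any course.

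For the 4 members whose group means spanned at least 1 log2 unit, the genes of most similar pattern were sought by Pearson's r over the 12 group means, given as a description. Lgals3 was followed most closely by Adam8 (r = 0.995), Hmox1 (0.985) and Itgam (0.985), Lgals9 by Spag7 (0.927), Rab2a (0.901) and Pigl (0.879), Lgals8 by Renbp (0.962), Atp6v1d (0.961) and Cpeb4 (0.960), and Lgals4 by H1f2 (0.959), Cox6b2 (0.947) and Mxd1 (0.945). The 12 means share the arrays of each group, and the nilotinib end of 8093 was the highest group for Lgals4, Lgals8 and Lgals9. Of the members that lie near each other in the genome, Lgals4 and Lgals7 on chromosome 7 have 0 protein-coding genes between them and were called in different comparisons, Lgals4 at the nilotinib end and Lgals7 at the nilotinib midpoint of 8093. Lgals1 and Lgals2 on chromosome 15, with 3 protein-coding genes between them, were both not called.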

How the data were processed

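RNA of 34 cultures was hybridised to Affymetrix Mouse Gene 1.0 ST arrays as biotinylated cRNA, per the labels' protocols. The deposited table holds the authors' log2 signals of 35557 probesets (array medians 5.21 to 5.44); the submitters' processing notes name Partek, and how background was corrected and arrays normalized is not stated there. Values were used as deposited. GEO's platform annotation gave 21789 probesets a single symbol, 1621 several and 12147 none; the probeset with the highest mean stood for each of 19938 genes (999 had a choice).

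Group means were fitted with limma 3.58.1 in R 4.3.3 (lmFit and eBayes) over all arrays, with 22 residual degrees of freedom, and p-values were adjusted by Benjamini-Hochberg over all genes at 0.05. The script was tested on simulated data. Plates are separate cultures of the same line, so p-values measure the spread between plates. The number of arrays limits the precision, and an exact permutation test of 3 against 3 arrays cannot go below p = 0.1.

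All 9 members are described. Of each gene list, counts are given and up to 3 genes of largest called change each way are named, along with the 3 genes of most similar pattern for members spanning at least 1 log2 unit. Members and lists were chosen with earlier results of these data known. Alternatives were quantile normalization, leaving out genes below a log2 signal of 6 in all groups, a trended robust prior, array weights, a fit of the groups compared alone, the mean of probesets, a replicate block, leaving out each array and, chosen after seeing the data, a fit without the 8093 nilotinib end arrays. A group left with 1 array was assumed to vary like the others. The labels give lonafarnib once in mM and once in µM, and µM is used here.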

Additional observations from a re-analysis of the deposited data

Results flagged for a closer look

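The changes listed here differed between the drugs or between the lines by a test of the difference itself, in limma's fit with Benjamini-Hochberg adjustment over all genes. Values are differences of log2 changes ± SE.

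Between nilotinib and lonafarnib at the 8093 midpoint, Lgals3 differed by 3.05 ± 0.49, Lgals3bp by -0.52 ± 0.18 (0.06 under nilotinib against 0.58 under lonafarnib, adjusted p = 0.0273), Lgals7 by 0.61 ± 0.22 (0.65 against 0.04, adjusted p = 0.0421) and Lgals9 by -0.62 ± 0.14. The Lgals7 call was lost without nilotinib start array 1 or 2, nilotinib midpoint array 2 or 3, lonafarnib start array 3 or lonafarnib midpoint array 1 or 3 (0.43 to 0.62, adjusted p of 0.0633 to 0.165), with quantile normalization (0.52, adjusted p = 0.0882), with array weights (adjusted p = 0.0663) and with the compared groups alone (adjusted p = 0.0804). The Lgals3bp call was lost without nilotinib start array 3, nilotinib midpoint array 3, lonafarnib start array 3 or lonafarnib midpoint array 1 (-0.50 to -0.36, adjusted p of 0.0580 to 0.118), with the compared groups alone (adjusted p = 0.0572) and with quantile normalization (-0.30, adjusted p = 0.218), under which the nilotinib change of Lgals3bp itself was 0.34 (adjusted p = 0.0224).

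At the 8093 end the drug difference was 4.27 ± 0.55 for Lgals3, 0.67 ± 0.20 for Lgals3bp (adjusted p = 0.00779), 1.03 ± 0.27 for Lgals4 (0.97 against -0.06, adjusted p = 0.00325), 0.91 ± 0.15 for Lgals8 and 0.47 ± 0.16 for Lgals9. The Lgals3bp call was lost without nilotinib end array 1 or lonafarnib end array 2 (0.48 and 0.55), and the Lgals4 call without nilotinib end array 2 (0.66, adjusted p = 0.0716). Both nilotinib end arrays of 8093 were low in pre-B markers and high in mast cell markers, with mast cell marker means of 11.44 and 11.38 against 3.84 to 4.16 at the start. Their part in these differences was not tested. At the Bin-2 end the drug difference was 2.44 ± 0.49 for Lgals3 and 0.67 ± 0.14 for Lgals9.

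Between Bin-2 and 8093 at the nilotinib midpoint, Lgals3 differed by -2.63 ± 0.49 and Lgals7 by -0.89 ± 0.22 (-0.24 in Bin-2 against 0.65 in 8093, adjusted p = 0.00324). At the nilotinib end the line difference was -0.67 ± 0.19 for Lgals3bp (adjusted p = 0.00570), -0.96 ± 0.26 for Lgals4 (0.01 against 0.97, adjusted p = 0.00400), -0.74 ± 0.14 for Lgals8 (0.14 against 0.87, adjusted p = 7.99e-05), -1.08 ± 0.15 for Lgals9 and 0.49 ± 0.18 for Lgals12 (adjusted p = 0.0393). The Lgals3bp call was lost without 8093 end array 1 (-0.48), the Lgals4 call without 8093 end array 2 (-0.59, adjusted p = 0.101), and the Lgals12 call without 8093 start array 3, 8093 end array 2, Bin-2 start array 1 or 2 or Bin-2 end array 3 (0.34 to 0.50). The Lgals12 call was also lost with quantile normalization (0.43, adjusted p = 0.0786), with the trended robust prior (adjusted p = 0.0724), with array weights (0.46, adjusted p = 0.117) and with the compared groups alone (adjusted p = 0.0882). At the lonafarnib end Lgals9 differed by -1.28 ± 0.15.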

How the results depend on the processing

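None of the 55 called changes of members turned its direction in the alternatives run, while some changes that were not called crossed 0 when an array was left out (Lgals3 at the 8093 lonafarnib end, -0.18 to 0.54). Of the 55 called changes of members, 49 remained called with quantile normalization, 51 with a trended robust prior, 52 with array weights, 55 with the mean of probesets, 54 with the replicate block and 43 in fits of the groups compared alone. Of those the alternative could measure, 44 of 44 remained without dim genes and 35 of 35 in the fit without the 8093 nilotinib end arrays, which was chosen after seeing the data; leaving out single arrays kept 362 and lost 60. Counts of members called stayed within 1.5 times in 319 cases and moved in 45. Quantile normalization moved the median change of all genes by at most 0.0854.

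At the Bin-2 lonafarnib midpoint 4 members were called, against 2 with quantile normalization, 2 with the compared groups alone and 2 to 4 with an array left out. At the 8093 nilotinib midpoint 5 were called, against 3 without dim genes, where Lgals7 and Lgals12 were not tested. With the compared groups alone 3 were called there. From midpoint to end of 8093 nilotinib 5 became 3 without dim genes, since Lgals4 and Lgals12 were not tested there. At the 8093 lonafarnib end 0 became 1 (Lgals1) without dim genes, with the robust prior and with array weights. For the Bin-2 midpoint drug difference 0 became 1 (Lgals8) without dim genes, with the robust prior, with array weights and without the 8093 nilotinib end arrays. For the nilotinib midpoint line difference 2 became 1 without dim genes, where Lgals7 was not tested. For the nilotinib end line difference 5 became 3 without dim genes, where Lgals4 and Lgals12 were not tested. It gave 3 to 5 with an array left out. For the lonafarnib midpoint line difference 0 became 1 (Lgals3bp) without dim genes, with the robust prior, with array weights, with the compared groups alone and without the 8093 nilotinib end arrays, and 0 to 1 with an array left out. From midpoint to end of Bin-2 nilotinib 1 became 0 with the robust prior and with the compared groups alone, and 0 to 1 with an array left out. For 8093 lonafarnib midpoint to end, 2 became 1 with the compared groups alone and 1 to 2 with an array left out. For the 8093 midpoint drug difference 4 became 2 with the compared groups alone and 2 to 4 with an array left out. With an array left out, the 8093 end drug difference gave 3 to 6 members, the Bin-2 lonafarnib end 1 to 2 and the Bin-2 lonafarnib midpoint to end 2 to 4. Other causes of these shifts were not tested.

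Replicate numbers did not pair the arrays: of 32 same-numbered pairs 2 correlated over 0.1 (range -0.18 to 0.16), and the replicate block lost 1 call, Lgals3bp at the Bin-2 lonafarnib end (adjusted p = 0.0507), and gained 1, Lgals8 at the same end (adjusted p = 0.0416 against 0.0505), with no other call changed among the member comparisons recomputed.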
